A study of Mus musculus with 3 samples.

Results

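Complex I of the respiratory chain, the NADH:ubiquinone oxidoreductase, was described by the transcripts of its subunits in 3 spatial transcriptome sections of mouse heart. The genes were taken by symbol, as those named mt-Nd or Nduf followed by A, B, C, S or V and a number, with at least 50 unique molecular identifiers (UMIs, 1 per captured transcript) over the 3 sections. All 43 symbols of this kind reached the minimum, 36 coded in the nucleus and 7 in the mitochondrial genome, out of 32285 genes listed and 12659 with the minimum. Ndufab1, Ndufb1-ps and Ndufa4l2 have other symbol forms and were kept apart.

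The assay was Visium, in which polyadenylated RNA of a thin heart section binds to an array of spots, each with a barcode of its own, and a spot covers a small piece of tissue that can hold several cells. Hearts came from C57BL/6 mice, and each condition has 1 section, with no replicate. By the methods of the study the mice were supplied at 8 weeks of age, before a week of acclimatization and the gavage. The sham mouse received vehicle by gavage for 7 days and then an operation in which the needle was passed without tying the artery. The I/R mouse received the same vehicle for 7 days, and its left anterior descending coronary artery was tied for 30 min and then reopened for 24 h. The MUSKARDIA mouse had the same ligation and reopening after 7 days of gavage with MUSKARDIA, the Shexiang Baoxin Pill (SBP), a compound pill of traditional Chinese medicine. Treatment thus preceded ischemia, and no section of an unligated heart given MUSKARDIA was analysed here, so MUSKARDIA was compared only in ligated tissue.

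Complex I is the entry point for electrons from NADH into oxidative phosphorylation, and it pumps protons across the inner mitochondrial membrane. A matrix arm oxidises NADH and hands the electrons along iron-sulfur clusters to ubiquinone, and a membrane arm holds the proton pumps. The core of the membrane arm is coded in the mitochondrial genome and the core of the matrix arm in the nucleus, while further nuclear-coded subunits, called supernumerary, surround both arms and are needed for assembly and stability. Heart muscle is packed with mitochondria, and complex I is a known site of damage and of radical formation when ischemic myocardium is reperfused.

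After removal of spots with fewer than 200 detected genes, 2234 spots remained in sham, 2082 in I/R and 1960 in MUSKARDIA, with 21631280 to 30238530 UMIs a section. A level is the UMIs of a gene summed over spots, per 1000000 UMIs of the same spots (CPM), and each difference is a log2 ratio of levels. The spots are those of a whole section or, where named, of a group of its spots. A log2 ratio of at least 0.32 in size was taken as past the threshold. Because the capture reads transcript ends, levels were not divided by gene length. All intervals are at the 95% level and leave out the spread between mice. They cover the counting error of UMIs only, except those for shares of spots, which count spots as independent. No p-value was computed, since no condition has a second section. The share of UMIs from all mitochondrial-coded genes was 48.6% for sham, 44.3% for I/R and 46.3% for MUSKARDIA. The median log2 ratio over all genes with the minimum was 0.24 for I/R over sham, -0.17 for MUSKARDIA over I/R and 0.08 for MUSKARDIA over sham, so that a subunit at a ratio of 0 lies below the typical gene in I/R over sham. Over whole sections, other scalings lower every I/R over sham ratio by the same amount. The log2 shift was -0.12 with nuclear-coded UMIs as the denominator, -0.23 with TMM factors and -0.22 with median-of-ratios factors. For MUSKARDIA over I/R these shifts were 0.05, 0.16 and 0.13, and for MUSKARDIA over sham -0.06, -0.07 and -0.08. The tissue matched its label, since all 10 cardiomyocyte markers were detected in large numbers and no lymphocyte marker reached 50 UMIs.

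Start regions of the nuclear-coded genes were read for what the members share beyond their names. RefSeq promoters of GRCm38.p6, from 250 bases before to 50 after the gene start, were found for 32 of the 36 nuclear-coded members. The letters AAGATGGCG, the core of the site of the transcription factor YY1, stood in the promoters of 5 members on either strand, 15.6% of the 32, and in 1.64% of all 27025 genes of the table. They are shown for these 5 genes because one of them, Ndufs6, had the lowest I/R over sham ratio. Capitals mark the motif, and all 5 matches hold the annotated start codon inside the letters.
Ndufa9 (chr6:126849096-126849125, minus strand): attgtgggagAAGATGGCGgccgccgtccg
Ndufc1 (chr3:51408914-51408943, minus strand): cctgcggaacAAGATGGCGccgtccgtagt
Ndufs4 (chr13:114388045-114388074, minus strand): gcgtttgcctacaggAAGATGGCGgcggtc
Ndufs6 (chr13:73328433-73328462, minus strand): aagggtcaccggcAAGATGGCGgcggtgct
Ndufs7 (chr10:80249463-80249492, plus strand): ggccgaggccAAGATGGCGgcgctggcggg

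The letters CGCATGCG, the core of the site of NRF1, a regulator of many genes for mitochondrial proteins, were found in 2 members, 6.25% of the 32 against 2.07% of all genes. Both lie upstream of the start used in the RefSeq promoter table, though for Ndufa8 inside the gene as GENCODE M21 draws it.
Ndufa11 (chr17:56717692-56717721, plus strand): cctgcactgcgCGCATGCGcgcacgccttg
Ndufa8 (chr2:36049329-36049358, minus strand): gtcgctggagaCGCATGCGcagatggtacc

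The letters CCGGAAG, read by GABPA, stood in 4 members (12.5%) and in 9.93% of all genes. TCAAGGTCA, read by the estrogen-related receptors, stood in 0 members and in 0.466% of all genes, which says only that these letters are not in the windows searched. A match is a description of the sequence and not a mapped site. For I/R over sham the median log2 ratio was -0.19 over the 5 members with the YY1 letters, with a range from -0.44 to -0.03, and -0.11 over the 27 without. Both sets thus overlapped, and the YY1 set also held Ndufs4, which differed little. That it holds the member with the lowest ratio was the reason to show it and adds nothing. The same split gave -0.14 over the 2 members with the NRF1 letters and -0.12 over the 30 without. For the GABPA letters it gave -0.097 over 4 members and -0.12 over the 28 without, the other direction. A link between these letters and the ratios was not tested.

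Across whole sections, nuclear-coded complex I transcripts were lowest in I/R and nearly as high in MUSKARDIA as in sham. Their summed level was 19730 CPM in sham, 17688 in I/R and 19254 in MUSKARDIA. The log2 ratio was -0.16 for I/R over sham (95% interval -0.16 to -0.15), 0.12 for MUSKARDIA over I/R (0.12 to 0.13) and -0.04 for MUSKARDIA over sham (-0.04 to -0.03). Under the other 3 scalings MUSKARDIA over sham ran from -0.12 to -0.098 and kept its direction, as did the other ratios. Each interval excludes 0, but the spread between mice is unknown. Fewer cardiomyocytes in the section and less of this RNA in each cardiomyocyte cannot be told apart in such sums.

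In I/R over sham, 29 of the 36 nuclear-coded members were lower, against 29.3% of all genes, and 5 were lower past the threshold, against 10.9%. The other 7 were higher, against 70.7% of all genes, and 0 of them past the threshold, against 42.6%. The background includes genes with few UMIs, whose ratios scatter more than those of the members, which had 13715 to 174726 UMIs each. The median over the members was -0.12, or -0.36 relative to the median of all genes.

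**Figure D1:**
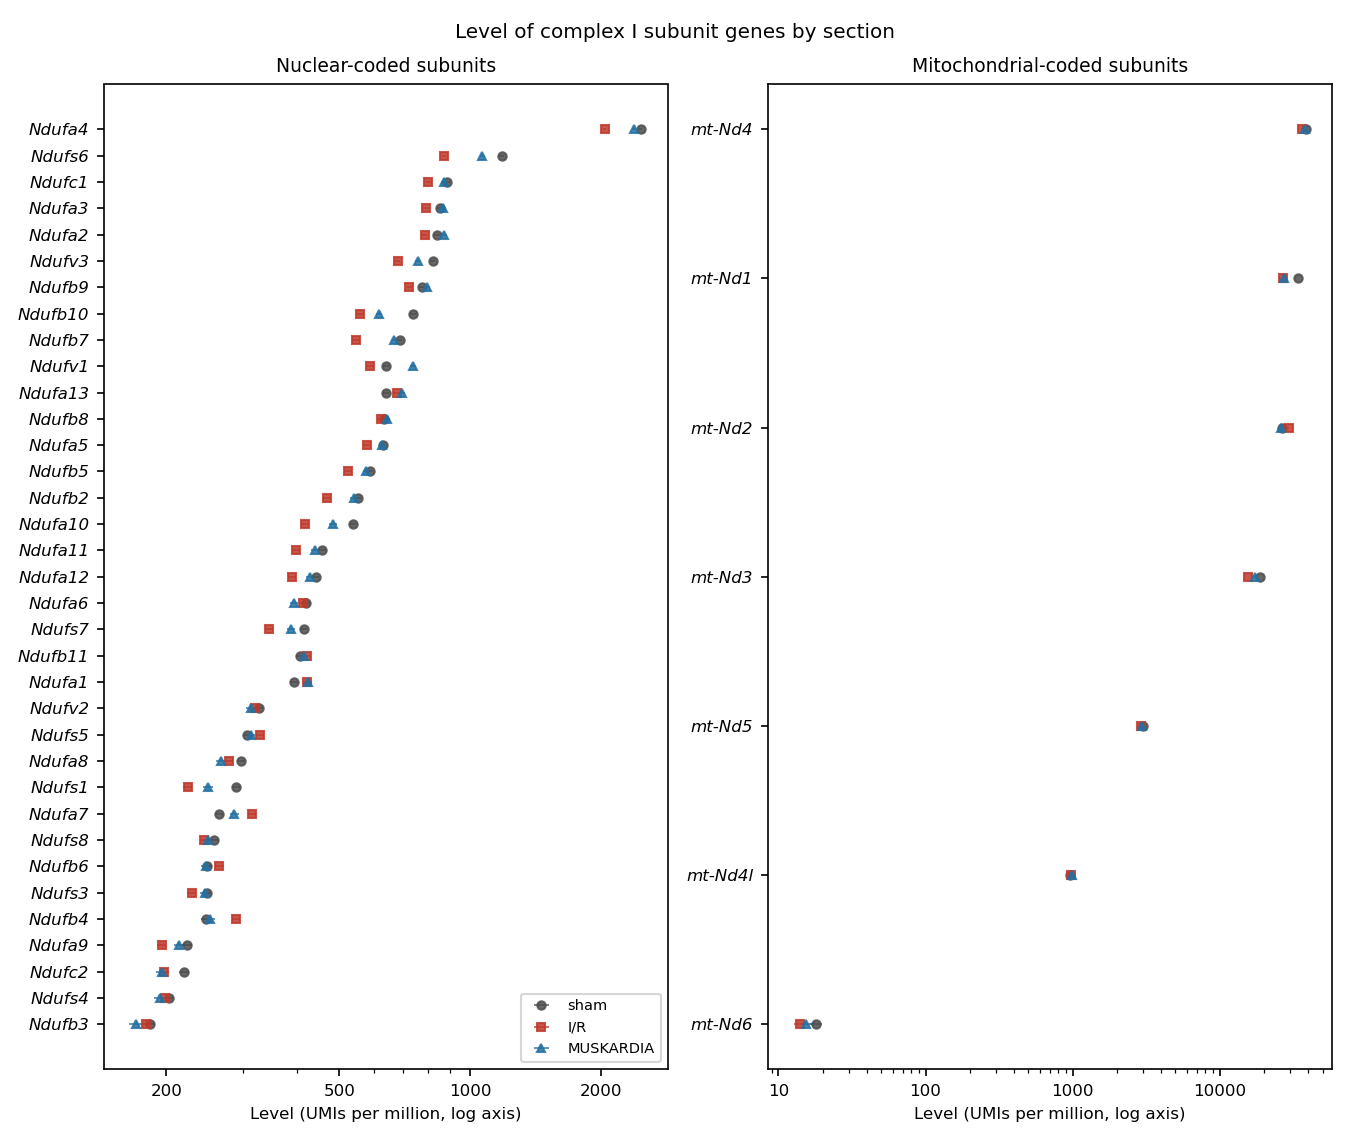
Level of the complex I subunit genes in the 3 sections, in CPM on a log axis, with nuclear-coded genes on the left and mitochondrial-coded genes on the right. Points are whole-section levels with 95% counting intervals, most narrower than the symbol. The I/R squares lie left of the sham circles for most nuclear-coded genes, Ndufs6 among the widest gaps.

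The catalytic core of the matrix arm comprises 7 nuclear-coded subunits. Ndufv1, which binds FMN and NADH and takes up the electrons, stood at 641 CPM in sham, 588 in I/R and 739 in MUSKARDIA. It was the nuclear-coded member with the highest MUSKARDIA over I/R ratio, 0.33 (0.30 to 0.36), and the highest MUSKARDIA over sham ratio, 0.20 (0.17 to 0.24). MUSKARDIA was thus the highest of the 3 sections for Ndufv1, under each of the 4 scalings.

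Ndufs1, the largest core subunit and the carrier of several iron-sulfur clusters, stood at 289.9 CPM in sham, 224 in I/R and 249.9 in MUSKARDIA, with -0.37 (-0.42 to -0.32) between I/R and sham and -0.21 between MUSKARDIA and sham on the log2 scale. Ndufs1 was therefore lowest in I/R and still below sham in MUSKARDIA. Ndufs7, which holds the last cluster before ubiquinone, stood at 414 CPM in sham, 345 in I/R and 387 in MUSKARDIA, in the same order.

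Further core subunits differed less. Ndufs3, a core subunit without a cluster, stood at 248 CPM in sham, 229 in I/R and 245 in MUSKARDIA. Ndufs8, a carrier of iron-sulfur clusters, stood at 258, 244 and 248.8 CPM, and Ndufv2, which holds a cluster beside Ndufv1, at 327, 320.4 and 313 CPM in the same order of sections. For Ndufv2 the I/R over sham interval by CPM includes 0 (-0.07 to 0.01). Its ratio was -0.15 with nuclear-coded UMIs as denominator, -0.26 with TMM and -0.25 with median-of-ratios factors. Summed over the core, the log2 ratio was -0.17 for I/R over sham and 0.15 for MUSKARDIA over I/R.

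Among the supernumerary subunits, Ndufs6, a zinc-binding subunit of the matrix arm needed late in its assembly, had the lowest I/R over sham ratio of all nuclear-coded members. In GRCm38 the gene (ENSMUSG00000021606) spans chr13:73319838-73328542, minus strand. It stood at 1179.9 CPM in sham, 869.7 in I/R and 1065 in MUSKARDIA. Its I/R over sham value was -0.44 (-0.46 to -0.42), and MUSKARDIA over I/R gave 0.29 (0.27 to 0.32). The I/R section was the low one, and MUSKARDIA lay between I/R and sham.

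Ndufb10, a subunit on the outer face of the membrane arm, stood at 739 CPM in sham, 558 in I/R and 617 in MUSKARDIA. Its ratio was -0.40 (-0.44 to -0.37) for I/R over sham and, at -0.26 (-0.29 to -0.23), also the lowest of all nuclear-coded members for MUSKARDIA over sham. Ndufb10 thus stayed nearer to I/R in the MUSKARDIA section than Ndufs6 did. Ndufa10, a membrane-arm subunit with a nucleoside-kinase fold, stood at 536 CPM in sham, 416 in I/R and 483 in MUSKARDIA, and Ndufb7, on the outer face of the membrane arm, at 687, 546 and 668 CPM. Ndufb7 was 0.29 (0.26 to 0.32) higher in MUSKARDIA than in I/R on the log2 scale, the next highest ratio after Ndufv1 and Ndufs6.

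A few supernumerary members were higher in I/R. Ndufa7, in the matrix arm, stood at 265 CPM in sham, 314 in I/R and 287 in MUSKARDIA, so that I/R over sham gave 0.25 (0.20 to 0.29) and MUSKARDIA over I/R -0.13. Ndufb4, at the far end of the membrane arm, stood at 246, 289 and 251 CPM, with ratios of 0.23 (0.18 to 0.28) and -0.20 (-0.25 to -0.15). Ndufs5, a small subunit facing the space between the membranes, stood at 307, 329 and 313 CPM. Of the 7 nuclear-coded members higher in I/R by CPM, Ndufa1, Ndufa13, Ndufb6, Ndufb11 and Ndufs5 turned to lower under each of the other 3 scalings, and Ndufa7 and Ndufb4 stayed above 0 under all of them, by 0.02 and 0.001 with TMM factors.

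**Figure D2:**
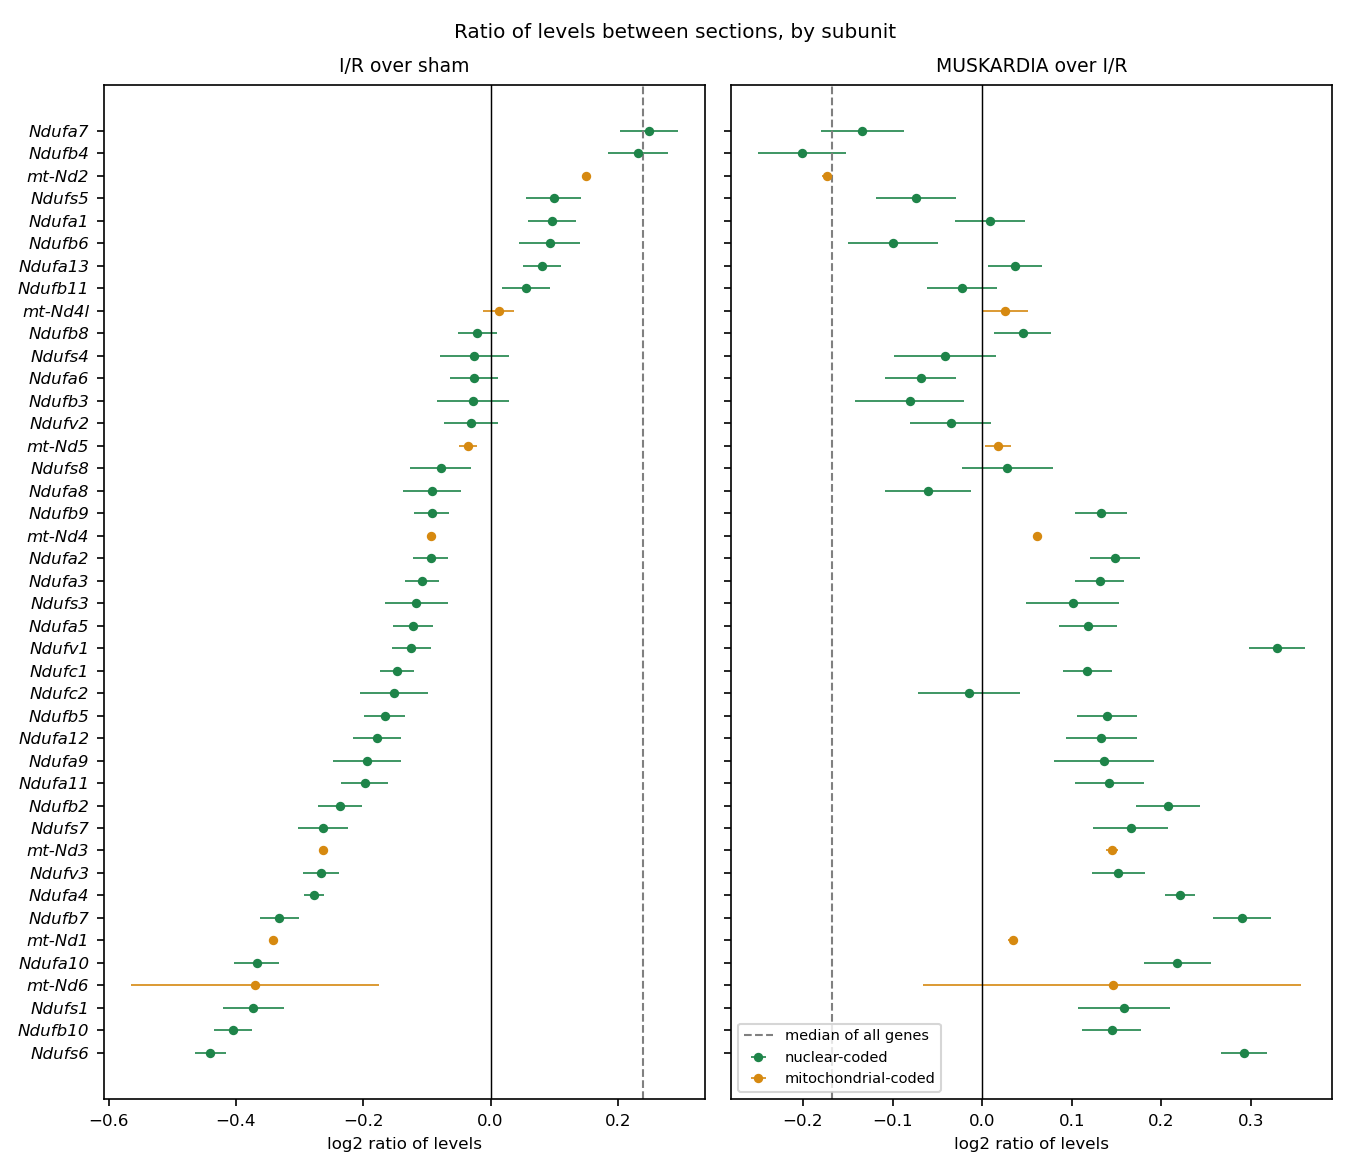
Log2 ratio between sections by subunit, I/R over sham on the left and MUSKARDIA over I/R on the right, ordered by the I/R over sham ratio. Points are ratios with 95% counting intervals, coloured by where the gene is coded, and the dashed line is the median of all genes. Most members lie left of 0 on the left and right of 0 on the right, on the opposite side of 0 from the median of all genes.

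By part of the complex, the summed I/R over sham log2 ratio was -0.18 (-0.19 to -0.17) for the 9 supernumerary subunits of the matrix arm and -0.11 (-0.12 to -0.11) for the 19 of the membrane arm. Of these, 8 and 13 members were lower in I/R. Ndufa4, named as a complex I subunit but found in complex IV, stood at 2465 CPM in sham, 2034 in I/R and 2371 in MUSKARDIA, and the nuclear-coded sum without it gave -0.14 for I/R over sham.

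For MUSKARDIA over I/R, 25 of the 36 nuclear-coded members were higher, against 30.6% of all genes, with a median of 0.12. Only Ndufv1 was higher past the threshold, 1 of 36 against 7.78% of all genes, and 0 were lower past it, against 32.6%. Ndufb4 (-0.20), Ndufa7 (-0.13) and Ndufb6, a membrane-arm subunit (-0.10), had the lowest ratios, and of these only Ndufb4 stayed below 0 under all 4 scalings. Because I/R is the denominator here and the numerator in I/R over sham, 1 high or low I/R value moves a gene in both comparisons in opposite directions.

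MUSKARDIA and sham differed least. Of the 36 nuclear-coded members, 25 were lower in MUSKARDIA, against 38.1% of all genes, and 0 passed the threshold in either direction, against 10.0% of all genes lower and 19.6% higher. The highest ratios were those of Ndufv1 (0.20), Ndufa13, also known as GRIM-19 (0.12), and Ndufa7 (0.12), and the lowest those of Ndufb10 (-0.26), Ndufs1 (-0.21) and Ndufc2, a membrane-arm subunit (-0.17). Ndufa13 stood at 641 CPM in sham, 678 in I/R and 695 in MUSKARDIA, and Ndufc2 at 219, 197 and 195 CPM. By CPM, MUSKARDIA was the highest section for Ndufa13 and the lowest for Ndufc2, but with TMM factors I/R was the lowest for both.

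The mitochondrial-coded subunits differed from the nuclear-coded ones in the MUSKARDIA section. Their summed level was 121810 CPM in sham, 111960 in I/R and 112558 in MUSKARDIA, so by CPM both ligated hearts lay below sham and close to each other. With TMM or median-of-ratios factors MUSKARDIA over I/R was 0.17 or 0.14 and MUSKARDIA over sham -0.19 or -0.20, which puts MUSKARDIA between the other sections. The log2 ratio was -0.12 for I/R over sham, 0.01 for MUSKARDIA over I/R (0.01 to 0.01) and -0.11 for MUSKARDIA over sham. For every UMI of the nuclear-coded subunits sham held 6.17 of the mitochondrial-coded ones (6.16 to 6.19), I/R 6.33 (6.31 to 6.35) and MUSKARDIA 5.85 (5.83 to 5.87). This quotient needs no library scaling. Its log2 change was 0.04 for I/R over sham and -0.11 (-0.12 to -0.11) for MUSKARDIA over I/R.

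The 7 mitochondrial-coded members did not share 1 direction. mt-Nd1, beside the ubiquinone site at the joint of both arms (chromosome M from 2751 to 3707, plus strand), stood at 33922 CPM in sham, 26775 in I/R and 27415 in MUSKARDIA. Both ligated hearts were below sham for mt-Nd1, with ratios of -0.34 and -0.31. mt-Nd2, a proton-pumping subunit (chromosome M from 3914 to 4951, plus strand), stood at 26432 CPM in sham, 29343 in I/R and 26016 in MUSKARDIA. It was the highest of the 3 in I/R, by 0.15 on the log2 scale, but this direction turned under TMM (-0.08) and median-of-ratios factors (-0.07).

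As a share of all mitochondrial-coded UMIs, mt-Nd1 took 6.98% in sham, 6.04% in I/R and 5.92% in MUSKARDIA, and mt-Nd2 took 5.44%, 6.62% and 5.62%. Within the mitochondrial RNA, which needs no scaling between sections, mt-Nd1 was thus lower and the neighbouring mt-Nd2 higher in I/R than in sham. In MUSKARDIA the share of mt-Nd1 stayed at that of I/R, and the share of mt-Nd2 lay near that of sham. By CPM, the contrast between sham and I/R was also present in spots outside the Ankrd1-high class described next, where mt-Nd1 stood at 34240 CPM in sham, 27809 in I/R and 27907 in MUSKARDIA, and mt-Nd2 at 26166, 29834 and 26169. In Ankrd1-high spots mt-Nd2 went the other way by CPM, with 29792 in sham, 28017 in I/R and 25325 in MUSKARDIA, while its share of mitochondrial-coded UMIs there was 6.60%, 6.90% and 5.77%.

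mt-Nd3, a small subunit whose loop shifts between the active and the deactive state of the enzyme, stood at 18757 CPM in sham, 15623 in I/R and 17276 in MUSKARDIA, lowest in I/R. mt-Nd4, a proton-pumping subunit, stood at 38725, 36312 and 37889 CPM, mt-Nd5, the outermost pump, at 2995, 2924 and 2960.1, and mt-Nd4l, which overlaps mt-Nd4 by 7 bases, at 961, 969 and 987. By CPM the last 3 differed between sections by at most 0.09 on the log2 scale. With TMM factors their I/R over sham ratios were -0.32 for mt-Nd4, -0.26 for mt-Nd5 and -0.22 for mt-Nd4l. mt-Nd6, the only one of the 7 coded on the other strand, stood at 18.0 CPM in sham, 14.0 in I/R and 15.4 in MUSKARDIA, and it rests on 1209 UMIs in all. It overlaps mt-Nd5 by 14 bases on the opposite strand, and reads in the overlap are told apart by strand alone. Under the CPM scaling 5 of the 7 were lower in I/R than in sham and 6 of the 7 higher in MUSKARDIA than in I/R, against the shares of all genes given above. With TMM or median-of-ratios factors all 7 were lower in I/R.

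Near-identical copies could take or lend reads. At 95% identity or more over 100 bases, 5 of 7 mitochondrial-coded and 10 of 36 nuclear-coded members matched an annotated transcript of another gene. None of these other genes was among the genes listed. For Ndufb2, Ndufb8 and Ndufb9 the match was not an annotated pseudogene, and it spanned 145, 134 and 202 bases at 100% identity. Whether those transcripts come from the locus of the member itself was not checked. For mt-Nd3 and mt-Nd4l the copy spans 345 bases at 99.7% and 294 bases at 100% identity, and for mt-Nd2 it spans 510 bases at 96.7% identity and reaches the 3′ end. For Ndufb4 a pseudogene matches 390 bases at 100%, though not those at the 3′ end that the capture reads. For Ndufs3 and Ndufb11 the match comes to 74 and 95 bases from that end. It spans 792 bases at 98.6% for Ndufs3 and 456 bases at 96.9% for Ndufb11. The levels of these genes are uncertain to that extent.

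Spots were next split by Ankrd1, an ankyrin-repeat protein of stressed cardiomyocytes, which the study used to mark infarcted tissue. A spot was called Ankrd1-high above 27.0 Ankrd1 UMIs per 10000, the 95th percentile of sham spots. By this rule 112 spots of sham (5.01%) were Ankrd1-high. So were 479 of I/R (23.0%, exact binomial interval 21.2% to 24.9%) and 326 of MUSKARDIA (16.6%, 15.0% to 18.4%). These intervals treat the spots of a section as independent draws and the cut from sham as fixed. They therefore cannot decide whether the sections differ. Measuring Ankrd1 per nuclear-coded UMIs brought I/R to 17.6% of its spots and MUSKARDIA to 14.5%, a narrower gap. Ankrd1 itself stood at 879 CPM in sham, 1715 in I/R and 1367 in MUSKARDIA. Spots are pieces of 1 section and not replicates, so the classes were compared within a section with counting intervals alone. Ankrd1-high spots held more UMIs, with a median of 17348 against 14103 in other spots of I/R.

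Nuclear-coded complex I transcripts were lower in Ankrd1-high spots of every section. The summed level was 16618 CPM in Ankrd1-high and 19977 in other spots of sham, 14968 and 18695 in I/R, and 16864 and 19783 in MUSKARDIA. The log2 ratio of the classes was -0.27 for sham (-0.28 to -0.25), -0.32 for I/R (-0.33 to -0.31) and -0.23 for MUSKARDIA (-0.24 to -0.22). The median over all genes went the other way, at 0.32, 0.23 and 0.20.

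In I/R all 36 nuclear-coded members were lower in Ankrd1-high spots, against 27.3% of all genes, and 18 were lower past the threshold, against 11.5%. In MUSKARDIA again all 36 were lower, against 32.7%, but 4 passed it, against 15.0%. In sham 35 of 36 were lower, against 29.2%, and 10 passed, against 15.0%, with Ndufb4 the 1 exception at 0.08 (-0.06 to 0.21). The count of 18 in I/R was 6 when Ankrd1 was measured per nuclear-coded UMIs and 36 when nuclear-coded UMIs were the denominator of the levels.

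**Figure D3:**
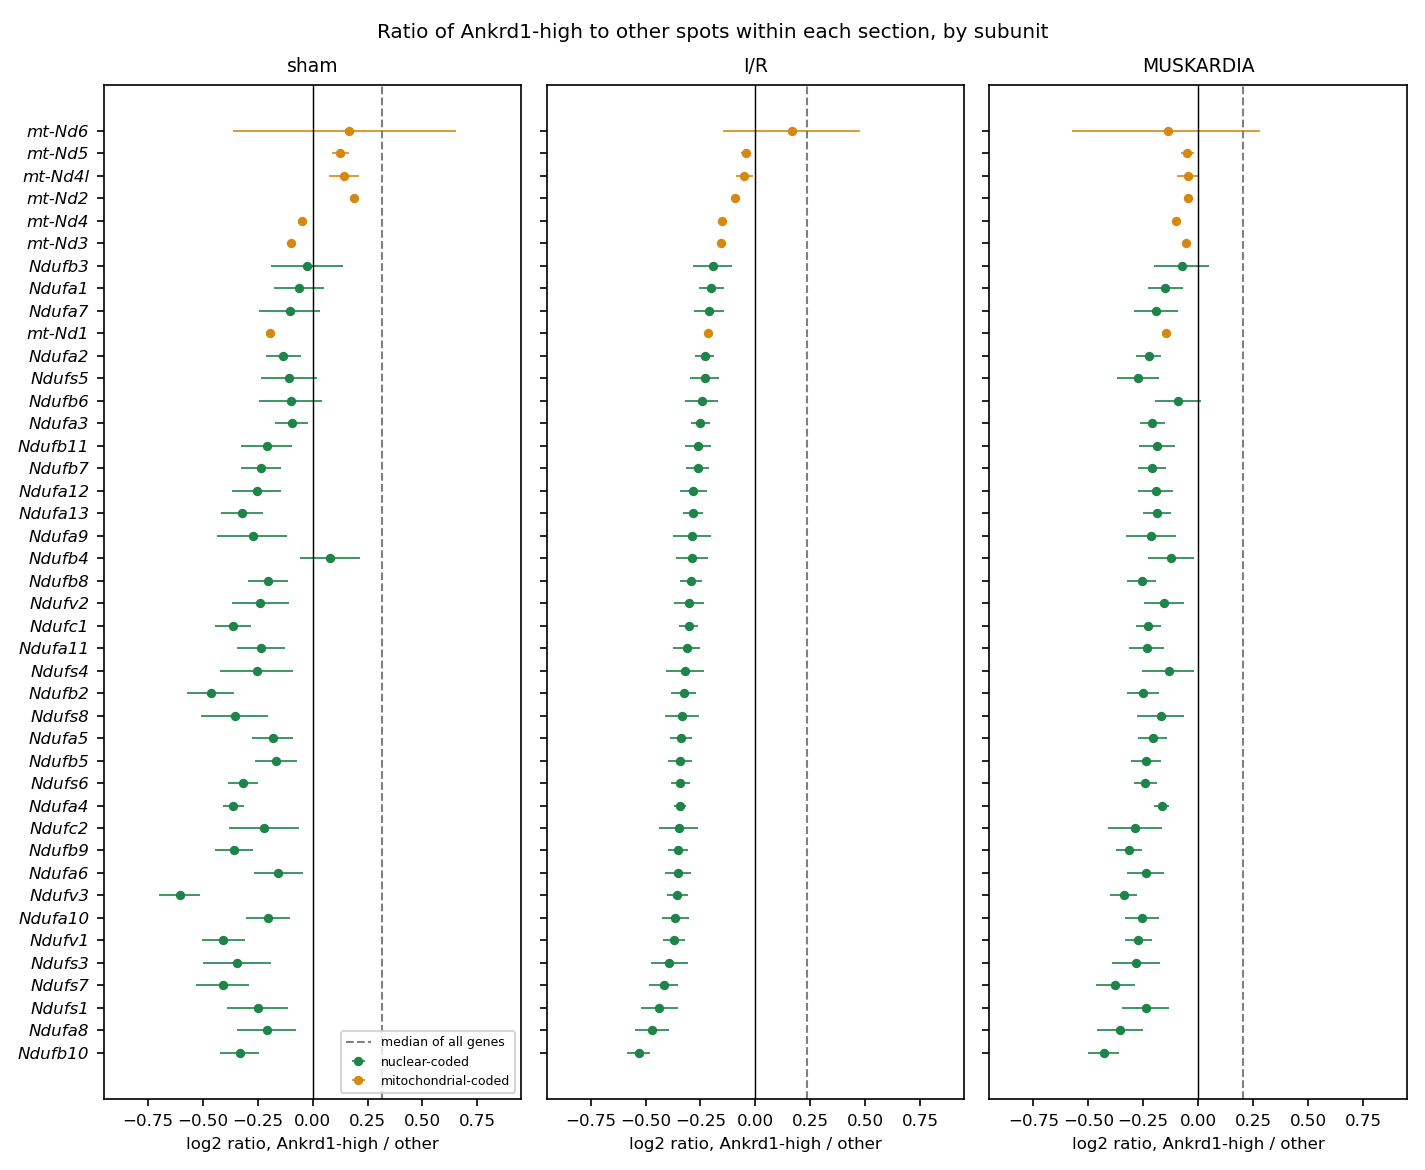
Subunits in Ankrd1-high against other spots, as log2 ratios, within the sham, I/R and MUSKARDIA sections, ordered by the I/R ratio. Points are ratios with 95% counting intervals, coloured by where the gene is coded, and the dashed line is the median of all genes. Nuclear-coded members lie left of 0 except Ndufb4 in sham, and 4 of the 7 mitochondrial-coded members lie right of 0 in sham.

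Ndufb10 had the lowest ratio in both ligated hearts. It stood at 421 CPM in Ankrd1-high and 609 in other spots of I/R, a ratio of -0.53 (-0.59 to -0.48), and at 479.9 and 647 CPM in MUSKARDIA, a ratio of -0.43 (-0.50 to -0.36). In sham the same gene gave -0.33. Ndufa8, a subunit of the intermembrane space held by disulfides, stood at 217 and 301 CPM in I/R (-0.47) and at 217 and 278 in MUSKARDIA (-0.36). Ndufs7 was among the lowest in MUSKARDIA (-0.38) and Ndufs1 in I/R (-0.44).

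The smallest gaps were those of Ndufb3 (-0.19), Ndufa1 (-0.20) and Ndufa7 (-0.21) in I/R, and of Ndufb3 (-0.08), Ndufb6 (-0.09) and Ndufb4 (-0.12) in MUSKARDIA. For Ndufb3 and Ndufb6 in MUSKARDIA the intervals include 0. In sham the lowest ratio was that of Ndufv3, a small subunit of the NADH-oxidising module, at -0.60 (-0.70 to -0.51), from 553 CPM in Ankrd1-high and 841 in other spots. In I/R Ndufv3 gave -0.36 and in MUSKARDIA -0.34. The 7 core subunits of the matrix arm had a summed ratio of -0.30 in sham, -0.37 in I/R and -0.25 in MUSKARDIA.

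Mitochondrial-coded subunits differed less between the spot classes. Their sum was 119153 CPM in Ankrd1-high and 122021 in other spots of sham, 103809 and 114979 in I/R, and 106900 and 113810 in MUSKARDIA. The ratios were -0.03 in sham, -0.15 in I/R and -0.09 in MUSKARDIA, and in sham the direction turned when Ankrd1 was measured per nuclear-coded UMIs (0.03) or the median over members was taken (0.13). In sham 3 of the 7 were lower in Ankrd1-high spots, in I/R 6 and in MUSKARDIA 7, beside the shares of all genes given above. The quotient of mitochondrial-coded over nuclear-coded subunits was therefore higher in Ankrd1-high spots of each section, 7.17 against 6.11 in sham, 6.94 against 6.15 in I/R and 6.34 against 5.75 in MUSKARDIA. Its log2 change was 0.23 (0.21 to 0.25), 0.17 (0.16 to 0.18) and 0.14 (0.13 to 0.15).

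Between sections, nuclear-coded subunits were lowest in I/R in both spot classes. In Ankrd1-high spots MUSKARDIA and sham changed places by CPM, at 16864 and 16618, a log2 ratio of 0.02. The whole-section scaling shifts given above would turn this ratio negative, but no scaling factors were computed within the class. Of the nuclear-coded UMIs of these spots, the subunits made up 3.00% in MUSKARDIA and 3.03% in sham. Within Ankrd1-high spots the summed log2 ratio was -0.15 (-0.17 to -0.13) for I/R over sham and 0.17 (0.16 to 0.19) for MUSKARDIA over I/R, and within other spots it was -0.10 (-0.10 to -0.09) and 0.08 (0.08 to 0.09). In Ankrd1-high spots 32 of 36 members were higher in MUSKARDIA than in I/R, against 33.7% of all genes, and Ndufv1, Ndufs6 and Ndufa4 passed the threshold, 3 of 36 against 12.5%. In other spots 22 of 36 were higher, against 33.3%, and 0 passed, against 8.23%. For I/R over sham, 28 of 36 were lower in Ankrd1-high spots, against 40.9%, 5 of them past the threshold, against 21.3%. In other spots 23 of 36 were lower, against 31.0%, and 1 passed, against 9.98%. For MUSKARDIA over sham, 18 of 36 were lower in Ankrd1-high spots, against 53.4% of all genes, and 21 of 36 in other spots, against 40.1%. The mitochondrial-coded sum gave -0.20 and -0.09 for I/R over sham in Ankrd1-high and other spots. For MUSKARDIA over I/R it gave 0.04 and -0.01, and the whole-section scaling shifts given above would turn the last positive.

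The spots of each section were also ranked by Ankrd1 and put into 5 bins of equal size. In I/R the nuclear-coded sum was 20599 CPM in the lowest bin, 20068 in the second, 17544 in the third, 15631 in the fourth and 14906 in the highest. MUSKARDIA went from 20966 CPM in the lowest bin to 16993 in the highest, and sham from 20705 to 17311. By CPM the lowest bins of the 3 sections were close to each other, and the sections parted in the upper bins. The scaling shifts given above were computed over whole sections and would lower I/R against both other sections if applied to each bin. In the lowest bins, unlike whole sections, the share of mitochondrial UMIs was close, at 50.1% in sham, 50.9% in I/R and 50.4% in MUSKARDIA. No scaling factors were computed within bins, so closeness under other scalings was not tested. For the mitochondrial-coded sum of I/R the step lay between the second bin, at 123069 CPM, and the third, at 102986, with 101602 and 103836 above it, while sham went only from 123693 to 119544. Cardiomyocyte markers went down along the same bins, in I/R from 46818 to 29658 CPM. The bins are set within each section, so the same bin stands for more Ankrd1 in I/R, where the median of the middle bin was 11.1 UMIs per 10000 against 4.46 in sham.

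**Figure D4:**
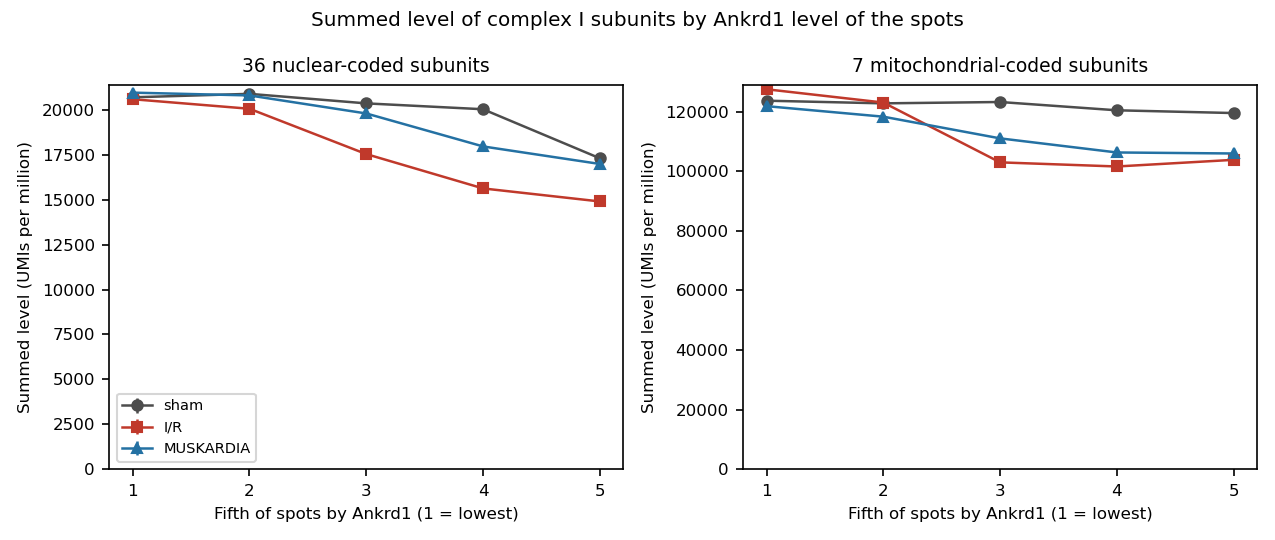
Summed level of the 36 nuclear-coded subunits (left) and the 7 mitochondrial-coded subunits (right), in CPM, in 5 bins of equal size of the spots of each section ranked by Ankrd1. Bars are 95% counting intervals, smaller than the symbols, and both axes start at 0. The nuclear-coded sum in I/R goes from 20599 in the lowest bin to 14906 in the highest, below sham and MUSKARDIA in every bin, with wider gaps from the third on.

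Over single spots, I/R held a tail of spots with little complex I RNA. The 5th percentile of sham spots was 152 nuclear-coded subunit UMIs per 10000, and 669 of the 2082 spots of I/R (32.1%) and 230 of the 1960 spots of MUSKARDIA (11.7%) lay below it. Medians were closer, at 201 in sham, 184 in I/R and 197 in MUSKARDIA. For the mitochondrial-coded subunits the sham 5th percentile was 1003, and 29.6% of I/R spots and 21.8% of MUSKARDIA spots lay below it. Their median over spots was lowest in MUSKARDIA, at 1127, against 1178 in I/R and 1226 in sham. The 5th percentile within I/R was 387 and within MUSKARDIA 778.

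**Figure D5:**
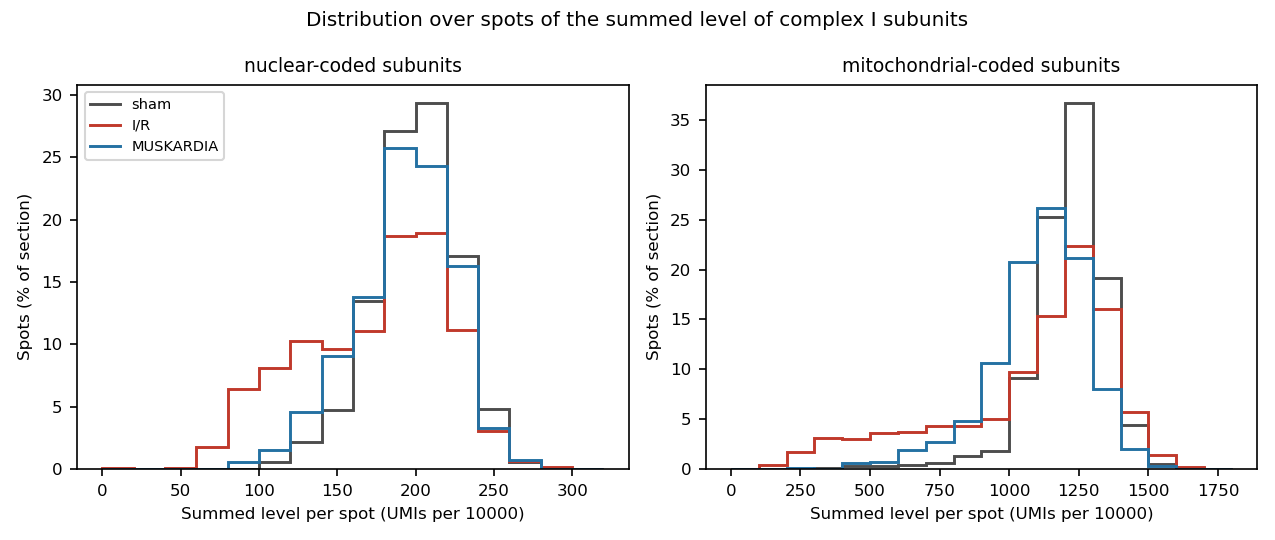
Distribution over spots of the summed level of nuclear-coded (left) and mitochondrial-coded (right) complex I subunits, in UMIs per 10000 UMIs of the spot, as the percentage of the spots of each section. Lines are histograms of the 3 sections. I/R has a tail of low spots in both panels, and MUSKARDIA lies between I/R and sham at the low end.

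The low spots and the Ankrd1-high spots were partly the same. Of the Ankrd1-high spots of I/R 57.0% were below the sham 5th percentile for nuclear-coded subunits, against 24.7% of the other spots, but 40.8% of the low spots were Ankrd1-high, so most low spots lay outside that class. In MUSKARDIA 27.3% of Ankrd1-high and 8.63% of other spots were low. In sham, whose own spots set the cut, the shares were 29.5% and 3.72%, so the overlap was not limited to ligated hearts. Low spots of I/R had a median of 12135 UMIs, against 14672 over the section. Across the spots of a section, the nuclear-coded subunit sum was also taken per 10000 nuclear-coded UMIs. Its Spearman correlation with the share of mitochondrial UMIs was 0.41 in sham (2234 spots), 0.84 in I/R (2082) and 0.66 in MUSKARDIA (1960). The points of a section share 1 library, and nuclear-coded UMIs enter both measures.

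Other genes of the mitochondrion were set beside the subunits. The other 6 mitochondrial-coded genes summed to 364325 CPM in sham, 331423 in I/R and 350750 in MUSKARDIA. On the log2 scale I/R over sham was -0.14 and MUSKARDIA over I/R 0.08. In MUSKARDIA they were thus further above I/R than the sum of the mitochondrial-coded complex I subunits, at 0.01. That sum does not stand for every subunit. By CPM mt-Nd2 alone was lower in MUSKARDIA than in I/R (-0.17), and the others ranged from 0.02 for mt-Nd5 to 0.15 for mt-Nd6. The 42 nuclear-coded genes of complexes III to V, chosen by symbol after the files were seen, stood at 51270 CPM in sham, 47010 in I/R and 51182 in MUSKARDIA, and gave -0.13 and 0.12. Their ratios for Ankrd1-high over other spots were -0.26 in sham, -0.32 in I/R and -0.25 in MUSKARDIA, beside -0.27, -0.32 and -0.23 for the nuclear-coded complex I subunits.

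Of the 3 related genes kept apart, Ndufab1, the acyl carrier protein of the complex, stood at 422 CPM in sham, 417 in I/R and 391 in MUSKARDIA, Ndufb1-ps at 486, 597 and 524, and Ndufa4l2 at 33.2, 32.7 and 38.1. Ndufb1-ps was the one of the 3 that was highest in I/R, by 0.30 on the log2 scale over sham.

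The assembly factors build the complex and are not part of it. Their 16 measured members summed to 415 CPM in sham, 390.1 in I/R and 368 in MUSKARDIA. Their log2 ratio was -0.09 between I/R and sham and -0.08 between MUSKARDIA and I/R, the second of which turned to 0.08 with TMM and 0.05 with median-of-ratios factors. In I/R over sham 11 of 16 were lower by CPM, against 29.3% of all genes, and 15 with TMM factors. By CPM 2 were lower past the threshold, against 10.9% of all genes. These were Ndufaf1, which helps to build the membrane arm, at 37.7 CPM in sham, 25.9 in I/R and 27.1 in MUSKARDIA, and Tmem186, which works with it, at 14.8, 9.09 and 9.48. Both stayed below sham in the MUSKARDIA section. Tmem126b, of the same assembly complex, was higher past the threshold in I/R than in sham, as were 42.6% of all genes. It stood at 12.1, 15.3 and 13.9 CPM in sham, I/R and MUSKARDIA. For MUSKARDIA over I/R 5 of 16 were higher by CPM, a share near the 30.6% of all genes, and 12 with TMM factors, and 0 passed the threshold by CPM.

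Of 14 regulators of mitochondrial gene expression, 6 were higher and 8 lower in I/R than in sham by CPM, against 70.7% and 29.3% of all genes, and 2 were higher and 12 lower with TMM factors. Esrra, a nuclear receptor that drives oxidative genes, stood at 102 CPM in sham, 74.3 in I/R and 92.2 in MUSKARDIA, the low value being that of I/R. Pprc1, a coactivator of the PGC-1 family, stood at 8.08, 14.3 and 11.5 CPM, and its relative Ppargc1b at 5.14, 3.64 and 4.07. Pprc1 was thus highest in I/R, and Ppargc1b highest in sham. Esrrg, a relative of Esrra, stood at 8.16, 6.48 and 7.26 CPM in sham, I/R and MUSKARDIA. Of 13 factors for mitochondrial RNA, 11 were higher in I/R than in sham by CPM, beside 70.7% of all genes, but 7 with nuclear-coded UMIs as the denominator and 4 with TMM factors. By CPM 2 of them passed the threshold, beside 42.6% of all genes, namely Pnpt1, part of the mitochondrial RNA degradation machinery, at 4.70 CPM in sham, 6.42 in I/R and 4.90 in MUSKARDIA, and Fastkd5, a processing factor, at 3.74, 5.03 and 4.67. Trmt10c, a subunit of mitochondrial RNase P, was lower past the threshold in MUSKARDIA than in I/R, as were 32.6% of all genes. It stood at 6.57 CPM in sham, 7.74 in I/R and 5.55 in MUSKARDIA.

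Markers of cell types moved with the same comparisons. The cardiomyocyte markers summed to 50500 CPM in sham, 37856 in I/R and 46371 in MUSKARDIA, and all 10 were lower in I/R than in sham. Their log2 ratio was -0.42 for I/R over sham, 0.29 for MUSKARDIA over I/R, and -0.53, -0.46 and -0.39 for Ankrd1-high over other spots in sham, I/R and MUSKARDIA. Per UMI of these markers, the nuclear-coded subunits stood at 0.391 in sham, 0.467 in I/R and 0.415 in MUSKARDIA. Relative to these markers they were thus higher in I/R than in sham, by 0.26 (0.25 to 0.26) on the log2 scale. The level of the markers in each cardiomyocyte is unknown, so the quotient does not give that of the subunits in each cardiomyocyte. In Ankrd1-high against other spots this quotient was also higher, by 0.26 in sham, 0.14 in I/R and 0.16 in MUSKARDIA.

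The 5 neutrophil markers summed to 28.3 CPM in sham, 241 in I/R and 118 in MUSKARDIA, all 5 higher in I/R than in sham. The 8 macrophage and monocyte markers summed to 602, 1159 and 666 CPM, all 8 higher in I/R than in sham by CPM, 7 with TMM factors, and all 8 lower in MUSKARDIA than in I/R. Blood markers summed to 2886, 4105 and 3859.8 CPM, and fibroblast markers to 1158, 1126 and 885 in sham, I/R and MUSKARDIA. Endothelial markers summed to 855, 837 and 809, and smooth muscle and pericyte markers to 610.4, 458 and 389. By CPM, 5 fibroblast markers were higher and 3 lower in I/R than in sham, against 70.7% and 29.3% of all genes. For endothelial markers these counts were 4 and 4, and for smooth muscle and pericyte markers 3 and 4, so these sums do not stand for every marker. Lymphocyte markers stayed between 1.07 and 2.12 CPM. The part of these cell types in the complex I differences was not tested.

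The same markers also differed between the spot classes. Fibroblast, blood, and macrophage and monocyte markers differed most widely in sham, whose Ankrd1-high class holds 112 spots, and neutrophil markers in MUSKARDIA. Fibroblast markers stood at 2140 CPM in Ankrd1-high and 1080.1 in other spots of sham, 1338 and 1048 in I/R, and 847 and 893 in MUSKARDIA. Blood markers stood at 887 and 3044 CPM in sham, 3408 and 4363 in I/R, and 2759 and 4103 in MUSKARDIA. Neutrophil markers stood at 62.3 and 25.6 CPM in sham, 275 and 228 in I/R, and 266 and 84.7 in MUSKARDIA, and macrophage and monocyte markers at 886 and 579, 1233 and 1131, and 802 and 636. Ankrd1-high spots of sham thus held more fibroblast, neutrophil and macrophage RNA and less blood RNA than other spots, and their part in the ratios of the subunits between spot classes was not tested either.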

How the data were processed

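Spatial transcriptomes (Visium) of 3 heart sections, 1 per condition, were used. The deposited matrices hold UMI counts of genes by spots, without normalization. The submitters' processing notes name Space Ranger 1.3.0 and mm10, whereas the methods of the study name another version and a human reference, while the 32285 genes listed are mouse genes. Gene positions came from GENCODE M21 (GRCm38), which held 32158 of the identifiers. 

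Spots with fewer than 200 detected genes were removed (3 in sham, 1 in I/R and 2 in MUSKARDIA). UMIs were summed over spots and divided by all UMIs of the section (25118258 in sham, 30238530 in I/R, 21631280 in MUSKARDIA). Levels of a class or bin of spots were divided by all UMIs of that class or bin. Sections shared 1207 to 1568 spot barcodes pairwise, since capture areas carry the same barcodes. Intervals were exact Poisson for levels, exact conditional binomial for ratios, exact binomial (Clopper-Pearson) for shares and normal from 4 sums for quotients. They cover counting error of UMIs only, except those for shares, which treat spots as independent. The log2 threshold of 0.32 stands in for a test. No clustering or doublet calling was run.

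Genes named with values were the mitochondrial-coded members, the core subunits, the 3 highest and 3 lowest nuclear-coded members of each comparison, and list genes past the threshold with at least 200 UMIs, up to 4 a list. The complexes III to V list and the few others were chosen after their values were seen. The values of 1 member that enters the sums and counts are not reported here. Members and lists were chosen with earlier results of these data known. Alternatives were 3 scalings, equal weight for spots, other spot filters, the median over members, other folds and minimums, and other definitions of Ankrd1-high spots. Intervals and ratios were tested on simulated data. Python 3.11.15 (numpy 2.4.6, scipy 1.17.1, pandas 2.3.3, matplotlib 3.10.9), R 4.3.3 with edgeR 4.0.16 for TMM factors only, and blastn 2.17.0 for copies were used.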

Additional observations from a re-analysis of the deposited data

Results flagged for a closer look

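For mt-Nd2, mt-Nd4l and mt-Nd5, the Ankrd1-high over other ratio had opposite signs by CPM in sham and in a ligated heart. The difference between sections was not tested, and each section is 1 mouse. mt-Nd2 gave a log2 ratio of 0.19 in sham (95% counting interval 0.17 to 0.20), -0.09 in I/R and -0.05 in MUSKARDIA. mt-Nd4l gave 0.14 in sham (0.08 to 0.21) and -0.05 in I/R (-0.09 to -0.01). mt-Nd5 gave 0.13 in sham (0.09 to 0.16), -0.04 in I/R and -0.05 in MUSKARDIA. The sham class holds 112 spots. As a share of mitochondrial-coded UMIs all 3 genes were higher in Ankrd1-high spots of every section, so the signs were not opposite by that measure. By share the log2 ratio in sham, I/R and MUSKARDIA was 0.30, 0.081 and 0.048 for mt-Nd2, 0.26, 0.12 and 0.049 for mt-Nd4l, and 0.24, 0.13 and 0.045 for mt-Nd5.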

How the results depend on the processing

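For the summed subunits and their quotient in I/R over sham, MUSKARDIA over I/R and Ankrd1-high over other spots of the ligated hearts, 25 alternative values stayed within the counting interval, 57 moved and 0 reversed. Scalings and weights moved the section ratios. I/R over sham for nuclear-coded subunits was -0.27 with nuclear-coded UMIs as denominator, -0.39 with TMM and -0.37 with median-of-ratios factors, -0.20 with equal weight for spots and -0.12 as the median over members. Mitochondrial-coded subunits gave -0.24, -0.35, -0.34, -0.18 and -0.093 in that order. MUSKARDIA over I/R for nuclear-coded subunits was 0.17, 0.28, 0.26 and 0.15 under the first 4, and for mitochondrial-coded ones 0.060, 0.17, 0.14, 0.049 and 0.034. The quotient of mitochondrial-coded over nuclear-coded subunits changed by 0.024 with equal weight and 0.026 by medians for I/R over sham, and by -0.10 and -0.084 for MUSKARDIA over I/R. For MUSKARDIA over sham it reversed to 0.012 by medians.

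The definition of Ankrd1-high spots moved the spot ratios. In I/R, nuclear-coded subunits gave -0.35 at the sham 90th percentile, -0.29 at the 99th, -0.26 with Ankrd1 per nuclear-coded UMIs, -0.34 after thinning, -0.28 at each section's own 95th percentile, -0.45 with nuclear-coded UMIs as denominator and -0.30 with equal weight. Mitochondrial-coded subunits gave -0.19, -0.10, -0.035, -0.17, -0.070, -0.28, -0.11 and, by medians, -0.091. Their quotient gave 0.16, 0.18, 0.23 per nuclear-coded UMIs, 0.21 at the own percentile, 0.19 with equal weight and 0.23 by medians. In MUSKARDIA, nuclear-coded subunits gave -0.31 with the nuclear denominator. Mitochondrial-coded subunits gave -0.11, -0.083, -0.051, -0.078 at the own percentile, -0.17 with the nuclear denominator, -0.085 with equal weight and -0.055 by medians, and the quotient gave 0.11, 0.16, 0.17, 0.16 and, by medians, 0.17. In sham the mitochondrial-coded ratio reversed to 0.027 with Ankrd1 per nuclear-coded UMIs and to 0.13 by medians. The causes were not tested.

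The 5 nuclear-coded members lower past the threshold in I/R over sham became 9 with the nuclear denominator, 22 with TMM and 20 with median-of-ratios factors, and 0 at 1.5-fold. The 1 member higher in MUSKARDIA over I/R became 3, 7 and 6, and 0 at 1.5-fold. Each scaling shifts all genes by the same amount, so the share of all genes past the threshold moves too. That share is given by CPM only, at 10.9% lower in I/R over sham and 7.78% higher in MUSKARDIA over I/R. Counts under other settings, here and above, therefore do not set the members apart from other genes. Spot filters moved no value. No paired analysis was possible because there is only 1 heart for every condition. Among the members, counting error was widest for mt-Nd6, whose I/R over sham interval ran from -0.56 to -0.18.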
